A study of Mus musculus with 27 samples.

Results

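The *Ugt1a* locus of the mouse was followed through 6 of its genes, *Ugt1a1*, *Ugt1a6a*, *Ugt1a6b*, *Ugt1a7c*, *Ugt1a9* and *Ugt1a10*, which were taken by name from the 46078 Ensembl genes of the count tables. The values are RNA-Seq read counts from scrapings of the distal ileal epithelium of 27 male C57BL/6 mice, labelled as postnatal day 56. Vehicle mice were gavaged with sesame oil every 4 d for 28 d. The other 8 groups received the dioxin TCDD in that oil at 0.01, 0.03 or 0.1 µg/kg, at 0.3, 1 or 3 µg/kg, or at 10 or 30 µg/kg, and each of the 9 groups had 3 mice. TCDD is a persistent ligand of the aryl hydrocarbon receptor (AhR), a transcription factor. The comparison asks which genes of the locus changed with dose, at which dose, and whether they changed together.

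UDP-glucuronosyltransferases attach glucuronic acid to small lipophilic molecules, which makes them water-soluble so that they can be exported into bile, urine or the gut lumen. The UGT1A enzymes come from a single locus in which each enzyme has a first exon and promoter of its own, and every first exon is spliced to the same common exons. The first exon encodes the part of the enzyme that binds the substrate, and the common exons encode the part that binds UDP-glucuronic acid and anchors the enzyme in the membrane of the endoplasmic reticulum. UGT1A1 is the enzyme that conjugates bilirubin, the UGT1A6 enzymes act on small planar phenols, and the enzymes of the *Ugt1a7c*, *Ugt1a9* and *Ugt1a10* first exons act on bulkier phenols and many drugs. The intestinal epithelium is a known site of UGT1A expression, and *UGT1A1* and *UGT1A6* are textbook AhR target genes of the liver.

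In GENCODE release M21 (GRCm38) the locus lies on the plus strand of chromosome 1, from chr1:88055388 to chr1:88220002, and spans 164.6 kb with 9 *Ugt1a* genes. *Ugt1a10* is the farthest upstream and is followed by *Ugt1a9*, *Ugt1a8*, *Ugt1a7c*, *Ugt1a6b*, *Ugt1a6a*, *Ugt1a5*, *Ugt1a2* and *Ugt1a1*. The 4 common exons, at chr1:88215044-88215175, chr1:88215795-88215882, chr1:88216138-88216357 and chr1:88218127-88218997, are annotated for all 9 genes. A read that lies within these exons overlaps 9 genes, and such reads go by default into a closing row of ambiguous reads and not into the count of any gene. That row held 0.607% to 1.02% of the uniquely aligned reads of a mouse. The joint of each first exon with the first common exon shows how the members differ. Own bases here are those of the member's first exon before the joint, and those of *Ugt1a6a* are also annotated to a *Ugt1a7c* transcript. The joint is printed below with the last 30 bases of the member's first exon in lower case and the first 20 common bases in capitals, which are read from chr1:88215044-88215063 in all 6 members:

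*Ugt1a7c* (own bases chr1:88095949-88095978): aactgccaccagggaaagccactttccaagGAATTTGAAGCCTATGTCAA
*Ugt1a9* (own bases chr1:88071649-88071678): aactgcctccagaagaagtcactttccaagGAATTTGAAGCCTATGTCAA
*Ugt1a10* (own bases chr1:88056307-88056336): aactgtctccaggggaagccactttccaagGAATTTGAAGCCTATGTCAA
*Ugt1a6a* (own bases chr1:88139302-88139331): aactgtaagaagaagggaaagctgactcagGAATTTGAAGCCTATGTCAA
*Ugt1a6b* (own bases chr1:88107770-88107799): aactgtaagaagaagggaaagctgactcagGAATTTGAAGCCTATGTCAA
*Ugt1a1* (own bases chr1:88212842-88212871): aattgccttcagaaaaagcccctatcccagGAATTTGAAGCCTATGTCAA

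*Ugt1a6a* and *Ugt1a6b* read the same across this joint, and over the 500 exonic bases before it they were 98.4% identical. *Ugt1a9* and *Ugt1a10* were 91.2% identical over the same length, *Ugt1a7c* was 82.4% identical to *Ugt1a9* and 82.6% to *Ugt1a10*, and *Ugt1a1* matched *Ugt1a7c* at 53.2% and *Ugt1a6a* at 32.2% of positions. The tables set reads that align to more than 1 place apart in another closing row, so near-identical stretches have fewer reads of their own. Of the 50-base windows in bases annotated to 1 gene alone, 48.3% in *Ugt1a6b* also occurred in another transcript, against 18.9% in *Ugt1a10*, 6.63% in *Ugt1a9*, 4.11% in *Ugt1a6a*, 0.66% in *Ugt1a7c* and 0% in *Ugt1a1*.

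Where a read had to lie to be counted for a gene also differed between members. *Ugt1a1* has 913 exonic bases of its own, all in its first exon (chr1:88211959-88212871), and *Ugt1a6b* has 938, *Ugt1a10* 949 and *Ugt1a9* 879, also in first exons. *Ugt1a7c* has 1915, of which 917 are its first exon (chr1:88095062-88095978) and 998 are the last stretch of the locus (chr1:88219005-88220002). In this annotation that last stretch belongs to *Ugt1a7c* alone, whereas RefSeq ends 7 of its 9 *Ugt1a* genes there, *Ugt1a1*, *Ugt1a6a*, *Ugt1a9* and *Ugt1a10* among them. In gene counts made with such models, reads from the first exon of *Ugt1a7c* cannot be told apart from reads on the 3′ end of other members. *Ugt1a6a* has 2142 bases of its own, but 1920 of them lie between common exons and 222 in its first exons, since its coding first exon is also annotated to a *Ugt1a7c* transcript. These gene models may differ from the release behind the deposited counts, so each value below is that of the gene's count and not of its first exon.

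**Figure D1:**
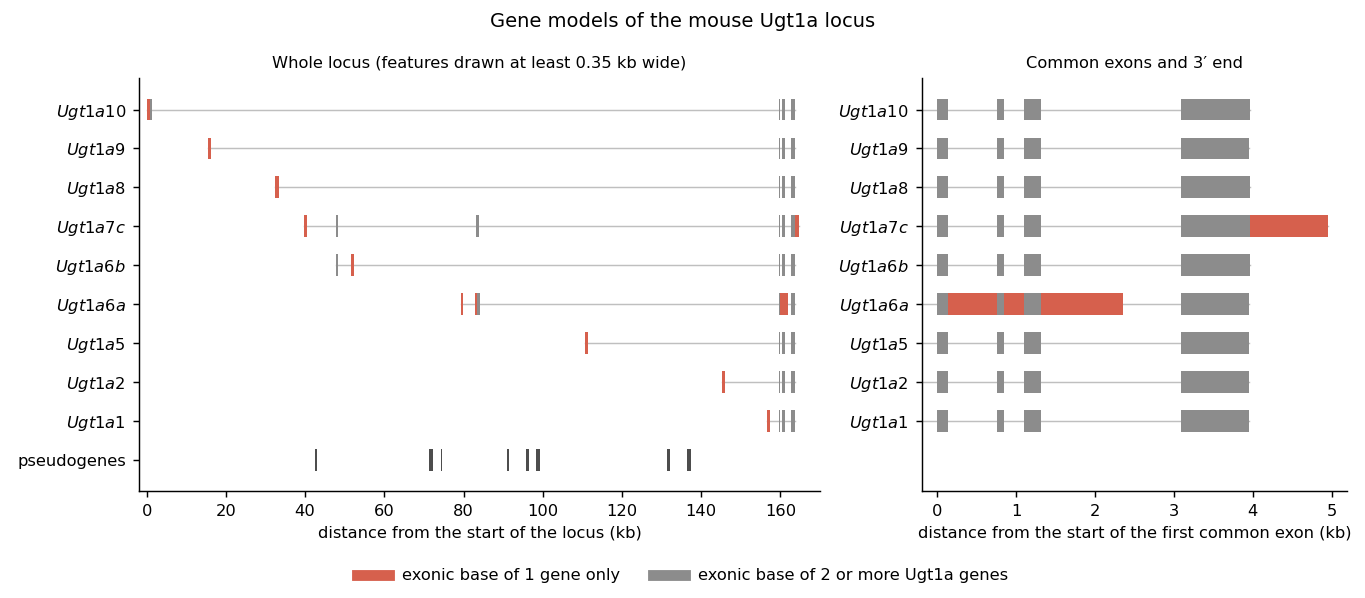
Exons of the 9 *Ugt1a* genes in GENCODE M21, drawn by distance from the start of the locus (left, kb) and from the start of the first common exon (right, kb). Red marks exonic bases of 1 gene only and grey marks bases of 2 or more *Ugt1a* genes, and the bottom line on the left shows pseudogenes. The 4 common exons are grey in all 9 genes, *Ugt1a7c* has red bases at the 3′ end, and *Ugt1a6a* has red bases between common exons.

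Each mouse had between 12.26 and 17.14 M counts on genes, with a median of 14.14 M, and 16741 genes passed the filter on low counts. Among the members, 4 of 6 passed it, *Ugt1a1*, *Ugt1a6a*, *Ugt1a6b* and *Ugt1a7c*, and these had at least 14 counts in every mouse. *Ugt1a9* and *Ugt1a10* did not pass. Defining markers of the ileal epithelium were high: *Vil1* averaged 2488 CPM (counts scaled to a common library size by edgeR's TMM factors) and *Fabp6* 1696 CPM in vehicle mice. The hepatocyte gene *Alb* had 0 to 1 counts and the colonocyte gene *Aqp8* 0 counts per vehicle mouse. Other genes of the same marker lists were counted. The hepatocyte list summed to 7208 to 8071 CPM in vehicle mice, nearly all of it *Apob*, and the colonocyte list to 126 to 150 CPM. Library indices were read from the names of the deposited tables, and the order of their use was inferred from the mouse numbers. By that order an index was used for the first time in 16 mice (all mice at 0.3 µg/kg and below and 1 at 1 µg/kg) and for the second time in 11 (the other 2 mice at 1 µg/kg and all at 3, 10 and 30 µg/kg). Index use and dose therefore cannot be told apart between vehicle and ≥3 µg/kg, but the comparisons of 10 and 30 with 3 µg/kg lie within the second use. The RNA comes from whole scrapings, in which fewer cells of a type and less RNA per cell cannot be told apart.

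A gene was called where the adjusted p of edgeR's quasi-likelihood test against vehicle, with Benjamini-Hochberg adjustment over all genes tested, was at most 0.05 and the change at least 1.5-fold. At 30 µg/kg all 4 tested members were called higher, against 5.42% of all genes, at 10 µg/kg 3 of 4 against 1.76%, and at 3 µg/kg 1 of 4, *Ugt1a7c*, against 0.645%. At 3 µg/kg the other 3 had an unadjusted p under 0.05. No member was called at the 5 doses from 0.01 to 1 µg/kg by edgeR or by DESeq2, where 0% of all genes were called up to 0.3 µg/kg and 0.4% were called higher at 1 µg/kg. At these doses 1 value had an unadjusted p under 0.05, that of *Ugt1a7c* at 0.3 µg/kg (1.25-fold, adjusted p = 0.557). No member was called lower at any dose, while 0.191%, 0.46%, 0.771% and 3.98% of all genes were at 1, 3, 10 and 30 µg/kg and 0% below. All mice were above all vehicle mice for 3 of the 4 tested members, *Ugt1a7c*, *Ugt1a6a* and *Ugt1a6b*, at each of 3, 10 and 30 µg/kg, as they were for 12.4%, 11.5% and 13.7% of all genes.

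*Ugt1a7c* had the most counts of the 6 members and increased at ≥3 µg/kg. Its CPM was 32.4, 35.2 and 32.9 in the 3 vehicle mice, with a mean of 33.5 ± 1.496 (SD, n = 3). It lay between 31.7 and 50.8 CPM in the mice given 0.01 to 1 µg/kg, and these groups overlapped vehicle except at 0.03 and 0.3 µg/kg, where all mice were above it as with 4.49% and 8.06% of all genes. The CPM was 49.7, 69.0 and 62.0 at 3 µg/kg, 84.8, 91.0 and 87.8 at 10 µg/kg, and 120.5, 124.0 and 121.8 at 30 µg/kg. All 9 of these mice were above all vehicle mice, and the 3 dose groups did not overlap each other. All mice at the higher dose were above all at the lower for 6.68% of all genes from 3 to 10 µg/kg, 5.65% from 10 to 30 µg/kg and 7.91% from 3 to 30 µg/kg. By edgeR the change was 1.80-fold at 3 µg/kg (log2 0.85 ± 0.12 SE, adjusted p = 0.000786), 2.62-fold at 10 µg/kg (log2 1.39 ± 0.12, adjusted p = 2.60e-07) and 3.64-fold at 30 µg/kg (log2 1.87 ± 0.13, adjusted p = 6.00e-10). Ordered by p over the 16741 genes, *Ugt1a7c* was number 5 at 10 µg/kg and number 6 at 30 µg/kg.

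*Ugt1a6a* had fewer counts and increased at 10 and 30 µg/kg. It was counted 54, 67 and 58 times in the vehicle mice, which is 4.24 ± 0.591 CPM (SD, n = 3). The counts were 73, 87 and 104 at 3 µg/kg, 114, 122 and 114 at 10 µg/kg, and 171, 205 and 160 at 30 µg/kg, or 6.18 ± 0.497, 8.59 ± 0.477 and 13.7 ± 1.90 CPM. Every mouse at these 3 doses was above every vehicle mouse in CPM, as with 12.4%, 11.5% and 13.7% of all genes. The 3 dose groups did not overlap, as with 6.68% of all genes from 3 to 10 µg/kg and 5.65% from 10 to 30 µg/kg. The change of 1.46-fold at 3 µg/kg did not pass the test (adjusted p = 0.129), while those of 2.02-fold at 10 µg/kg (log2 1.02 ± 0.17 SE, adjusted p = 0.00118) and 3.23-fold at 30 µg/kg (log2 1.69 ± 0.17, adjusted p = 9.55e-07) did. Since 1920 of the 2142 own bases of *Ugt1a6a* lie between common exons, the first exon behind these counts cannot be told.

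*Ugt1a6b*, its near copy, had the lowest counts of the 4 tested members and increased at the same doses. Vehicle mice had 20, 31 and 28 counts (1.87 ± 0.437 CPM), and the mice at 0.01 to 1 µg/kg had 14 to 37. The counts were 35, 38 and 56 at 3 µg/kg, 56, 62 and 56 at 10 µg/kg and 86, 87 and 56 at 30 µg/kg, where the mean was 5.82 ± 1.13 CPM. The group means at 0.01 to 1 µg/kg, 1.38 to 1.66 CPM, were all below the vehicle mean, with mice that overlapped it and adjusted p of 0.617 to 1. The change was 1.61-fold at 3 µg/kg (adjusted p = 0.183), 2.27-fold at 10 µg/kg (log2 1.19 ± 0.24 SE, adjusted p = 0.00628) and 3.10-fold at 30 µg/kg (log2 1.63 ± 0.24, adjusted p = 6.99e-05). Without the vehicle mouse with 20 counts, the call at 10 µg/kg was lost (adjusted p = 0.0526). With 48.3% of its own windows found elsewhere, its counts are uncertain.

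*Ugt1a1*, the bilirubin enzyme, was counted as often as *Ugt1a7c* in vehicle mice but did not follow it. Vehicle mice had 33.1, 39.0 and 26.9 CPM, a mean of 33.0 ± 6.01 (SD, n = 3), and the group means at 0.01 to 1 µg/kg were 29.7 to 38.7 CPM. The CPM was 37.7, 46.6 and 42.8 at 3 µg/kg, 29.3, 29.8 and 41.1 at 10 µg/kg, and 38.6, 57.8 and 55.4 at 30 µg/kg. The mice at 10 µg/kg were thus at the level of vehicle, and 1 mouse at 30 µg/kg was below the highest vehicle mouse. The change was 1.29-fold at 3 µg/kg (adjusted p = 0.280), 1.01-fold at 10 µg/kg (log2 0.02 ± 0.15 SE, adjusted p = 0.972) and 1.53-fold at 30 µg/kg (log2 0.62 ± 0.15, adjusted p = 0.00721), just past the limit of 1.5-fold. This call was lost in 5 of 9 other settings of the analysis, and on leaving out the vehicle mouse with 26.9 CPM (log2 0.49, adjusted p = 0.0688), the 30 µg/kg mouse with 57.8 CPM (log2 0.51, adjusted p = 0.0600) or that with 55.4 CPM (log2 0.55, adjusted p = 0.0390). Of the 913 own bases of *Ugt1a1*, 528 lie under an exon of the antisense gene *Gm20528*.

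*Ugt1a9* and *Ugt1a10* were close to undetected. *Ugt1a9* had 0, 0 and 2 counts in vehicle mice, 0 to 2 in the mice at 0.01 to 3 µg/kg, 0, 9 and 5 at 10 µg/kg and 5, 4 and 2 at 30 µg/kg. *Ugt1a10* had 1, 1 and 0 counts in vehicle mice, 0 to 5 in those at 0.01 to 10 µg/kg, and 3, 5 and 5 at 30 µg/kg. Summed over the 3 mice, this is 2 counts in vehicle and 11 at 30 µg/kg for *Ugt1a9*, and 2 and 13 for *Ugt1a10*. At this depth neither gene was tested against vehicle.

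**Figure D2:**
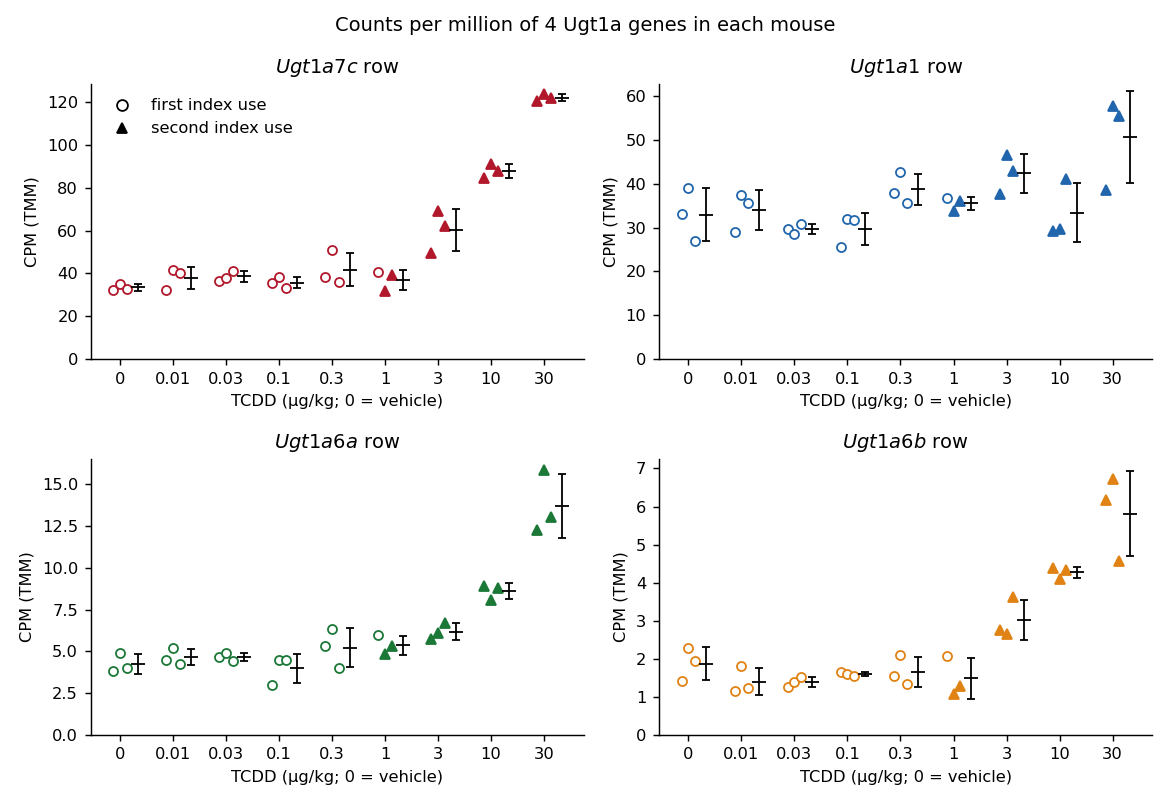
CPM (TMM-scaled) of *Ugt1a7c*, *Ugt1a1*, *Ugt1a6a* and *Ugt1a6b* in each of the 27 mice by dose of TCDD (µg/kg, 0 = vehicle), with the mean and SD of each group of 3 in black, open circles for the first and triangles for the second index use. *Ugt1a7c* climbed from 33.5 CPM in vehicle to 122.1 CPM at 30 µg/kg with dose groups apart from 3 µg/kg upward, while *Ugt1a1* at 10 µg/kg lay within the range of low doses.

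**Figure D3:**
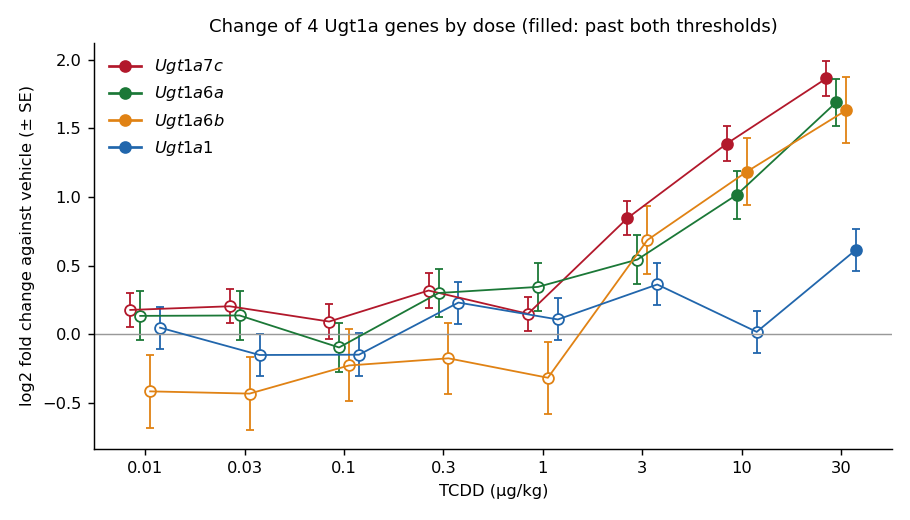
Log2 fold change against vehicle (± SE, edgeR) of the 4 tested members at each dose of TCDD (µg/kg, log-spaced axis). Filled points passed both limits. *Ugt1a7c* is filled at 3, 10 and 30 µg/kg, *Ugt1a6a* and *Ugt1a6b* at 10 and 30 µg/kg, and *Ugt1a1* at 30 µg/kg.

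The comparisons among the upper doses leave the vehicle mice out of the difference tested and hold index use constant. The fit behind them still took its spread and scaling from all 27 mice. From 3 to 30 µg/kg 3 of the 4 tested members were called higher, against 0.645% of all genes: *Ugt1a6a* by 2.21-fold (log2 1.15 ± 0.17 SE, edgeR adjusted p = 0.000585), *Ugt1a7c* by 2.03-fold (log2 1.02 ± 0.12, adjusted p = 3.64e-05) and *Ugt1a6b* by 1.93-fold (log2 0.95 ± 0.23, adjusted p = 0.0404). The call of *Ugt1a6b* was lost on leaving out any of the 3 mice at 3 µg/kg or the 30 µg/kg mouse with 87 counts, with adjusted p of 0.0574 to 0.212. It was also lost in 4 of 9 other settings of the analysis, among them library-size scaling (edgeR adjusted p = 0.0809) and no filter on low counts (adjusted p = 0.0725). In a fit of these 6 mice alone *Ugt1a7c* was the 1 member called. *Ugt1a1* differed by 1.19-fold (log2 0.25 ± 0.15, adjusted p = 0.487). No member was called between 3 and 10 µg/kg, where 0.0418% of all genes were called higher, or between 10 and 30 µg/kg, where 0.197% were. An unadjusted p under 0.05 was found for 4 of the 4 from 3 to 10 µg/kg, with *Ugt1a1* lower (log2 -0.35 ± 0.15) and the others higher, and for 3 from 10 to 30 µg/kg, and DESeq2 called 0 and 2. From 10 to 30 µg/kg the changes were 1.595-fold for *Ugt1a6a* (adjusted p = 0.0670), 1.51-fold for *Ugt1a1* (adjusted p = 0.0847), 1.39-fold for *Ugt1a7c* (adjusted p = 0.0827) and 1.36-fold for *Ugt1a6b* (adjusted p = 0.419). Without the 30 µg/kg mouse with 38.6 CPM of *Ugt1a1*, and by DESeq2, *Ugt1a1* and *Ugt1a6a* were called there, and without the 10 µg/kg mouse with 41.1 CPM *Ugt1a1* was (adjusted p = 0.0427). Over all 27 mice the 4 members rose with the rank of the dose, as did 13.4% of all genes, by 0.21 log2 units per dose step for *Ugt1a7c*, 0.19 for *Ugt1a6a*, 0.24 for *Ugt1a6b* and 0.06 for *Ugt1a1* (edgeR adjusted p of 1.03e-07 to 0.00633). With index use as a covariate these slopes were 0.06 to 0.18 and none was called, the lowest adjusted p being 0.0521.

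The summed counts of the 6 members give the level of the locus in reads assigned to 1 member. The summed CPM was 72.7 ± 7.92 (SD, n = 3) in vehicle mice, 112 ± 14.5 at 3 µg/kg, 134.6 ± 7.71 at 10 µg/kg and 193 ± 13.7 at 30 µg/kg. It rose 1.54-fold at 3 µg/kg (log2 0.62 ± 0.12 SE, edgeR adjusted p = 0.00484), 1.85-fold at 10 µg/kg (log2 0.89 ± 0.12, adjusted p = 7.45e-05) and 2.65-fold at 30 µg/kg (log2 1.41 ± 0.12, adjusted p = 4.27e-08). The call at 3 µg/kg was lost without the vehicle mouse with 26.9 CPM of *Ugt1a1* (adjusted p = 0.0502) and without the 3 µg/kg mouse with 69.0 CPM of *Ugt1a7c*, where the log2 change was 0.54. It was also lost with library-size scaling (log2 0.57), with index use as a covariate (log2 0.78, adjusted p = 0.161) and with a score of clock genes, described further on, as a covariate (log2 0.34, adjusted p = 0.751), and that covariate also ended the call at 10 µg/kg (log2 0.58, adjusted p = 0.424). Without *Ugt1a7c*, the sum changed by log2 0.40 at 3 µg/kg (adjusted p = 0.159), 0.25 at 10 µg/kg (adjusted p = 0.365) and 0.85 at 30 µg/kg (adjusted p = 0.000203), and was called only at 30 µg/kg.

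The members did not keep their proportions. *Ugt1a7c* took 45.8%, 43.2% and 50.0% of the summed counts in the vehicle mice and *Ugt1a1* 46.8%, 47.8% and 40.8%. At 10 µg/kg *Ugt1a7c* took 66.5%, 68.1% and 61.5% and *Ugt1a1* 23.0%, 22.3% and 28.8%, and at 30 µg/kg they took 67.7%, 60.5% and 62.3%, and 21.7%, 28.2% and 28.4%. The 2 genes thus went from near equal counts to about 2.66 counts of *Ugt1a7c* per count of *Ugt1a1* at 10 µg/kg and 2.45 at 30 µg/kg, with no overlap between these mice and vehicle. The difference in share at 30 µg/kg was +17.2 percentage points for *Ugt1a7c* and -19.1 for *Ugt1a1*, each with an exact two-sided permutation p of 0.1 (0.15 adjusted over 6 members), the smallest that 3 against 3 mice allow. *Ugt1a6a* went from 5.83 ± 0.398% to 7.09 ± 0.565% and *Ugt1a6b* from 2.57 ± 0.511% to 3.03 ± 0.605%.

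**Figure D4:**
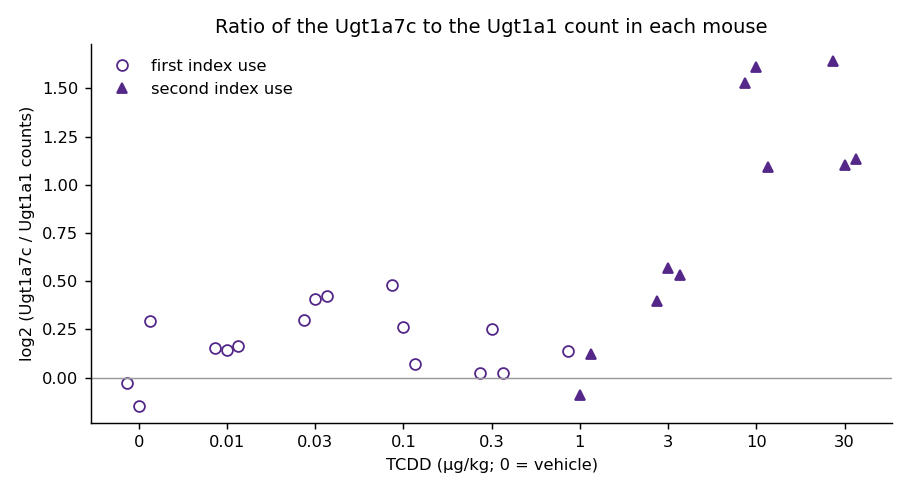
Log2 ratio of the *Ugt1a7c* count to the *Ugt1a1* count in each of the 27 mice by dose (µg/kg, 0 = vehicle), with open circles for the first and triangles for the second index use. The 3 mice at 10 µg/kg lie between 1.09 and 1.61 and those at 30 µg/kg between 1.10 and 1.64, above the vehicle mice at -0.15 to 0.29.

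Within a mouse the ratio of 2 genes does not depend on the scaling of the libraries. The log2 ratio of *Ugt1a7c* to *Ugt1a1* rose with dose rank over the 27 mice (Spearman's rho = 0.637, permutation p = 0.00051, adjusted 0.00261). Pearson's r was 0.733, with a permutation p of 1e-05, the smallest that 100000 permutations give, and 9e-05 adjusted over the 9 relations computed, which were chosen after the data were seen. The mice farthest from the median dose are the 6 of the vehicle and 30 µg/kg groups, and leaving out any 2 of them gave r between 0.668 and 0.741. Among the 11 mice of the second index use rho was 0.858 (adjusted p = 0.00416, permutation test) and r was 0.859 (adjusted p = 0.00232), and among the 16 mice of the first use rho was 0.0478 (adjusted p = 0.899) and r was 0.140 (adjusted p = 0.680). Against *Ugt1a1*, *Ugt1a6a* gave rho = 0.632 and r = 0.720 over all mice (permutation p = 0.00058 and 2e-05, adjusted 0.00261 and 9e-05), rho = 0.839 and r = 0.852 in the second use (adjusted p = 0.00416 and 0.00307) and rho = 0.137 and r = 0.163 in the first (adjusted p = 0.790 and 0.680). For *Ugt1a6b* these were rho = 0.584 and r = 0.651 over all mice (adjusted p = 0.00416 and 0.00096), 0.773 and 0.829 in the second use (adjusted p = 0.0118 and 0.00307) and -0.0358 and -0.0897 in the first (adjusted p = 0.899 and 0.742). Leaving out any 2 of the same 6 mice gave r between 0.638 and 0.734 for *Ugt1a6a* and between 0.556 and 0.75 for *Ugt1a6b*.

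Levels of different genes can be set side by side per length. Per kb of own exonic bases, *Ugt1a1* was at 36.1 ± 6.59 CPM/kb in vehicle mice and *Ugt1a7c* at 17.5 ± 0.783 CPM/kb, while *Ugt1a6a* (1.98 ± 0.276) and *Ugt1a6b* (2.00 ± 0.466) could not be told apart and *Ugt1a9* and *Ugt1a10* were at 0.0525 and 0.0505 CPM/kb. At 30 µg/kg *Ugt1a7c* was at 63.8 ± 0.924 CPM/kb and *Ugt1a1* at 55.4 ± 11.5 CPM/kb, which overlap in their spread with these lengths. *Ugt1a6a* and *Ugt1a6b* reached 6.40 ± 0.887 and 6.2 ± 1.2 CPM/kb. The order rests on the gene models above, in which 1920 of the 2142 own bases of *Ugt1a6a* lie between common exons and 998 of the 1915 of *Ugt1a7c* are the 3′ end. Of the 913 own bases of *Ugt1a1*, 385 are free of exons of the opposite strand. Had the counting ignored the strand, the level of *Ugt1a1* per kb would be higher than given here.

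The levels of *Ugt1a6a* and *Ugt1a6b* per kb lay in the range of unprocessed pseudogenes that lie in the introns of the locus and have rows of their own. The 8 pseudogenes, *Gm15373*, *Gm15372*, *Gm15370*, *Gm15369*, *Gm15374*, *Gm15371*, *Gm15368* and *Gm15376*, were at 1.40 to 4.89 CPM/kb in vehicle mice and at 5.26 to 16.7 CPM/kb at 30 µg/kg, and 7 of the 8 were called higher at 30 µg/kg by 3.14- to 6.95-fold. The pseudogene *Gm15372* (chr1:88126776-88127609) had 27, 33 and 31 counts in vehicle mice and 153, 168 and 112 at 30 µg/kg, a change of 5.10-fold (log2 2.35 ± 0.23 SE, edgeR adjusted p = 4.56e-07). It lies in introns of *Ugt1a10*, *Ugt1a9*, *Ugt1a8*, *Ugt1a7c* and *Ugt1a6b*. *Gm15373*, which lies just behind the first exon of *Ugt1a7c*, changed by 1.81-fold (adjusted p = 0.159). The first exon or intron from which these counts and those of *Ugt1a6a* and *Ugt1a6b* came cannot be told apart in gene counts.

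Of the 3 other *Ugt1a* genes, both that were tested were called higher at 30 µg/kg. *Ugt1a5* had 28, 14 and 15 counts in vehicle mice and 74, 101 and 81 at 30 µg/kg (4.85-fold, log2 2.28 ± 0.26 SE, edgeR adjusted p = 4.46e-06), and *Ugt1a2* had 11, 23 and 14, and 70, 75 and 63 (4.64-fold, log2 2.21 ± 0.34, adjusted p = 9.31e-05). Both were at 1.27 to 1.51 CPM/kb in vehicle mice. By edgeR *Ugt1a5* was called from 3 µg/kg and *Ugt1a2* from 10 µg/kg. DESeq2 did not call *Ugt1a5* at 3 µg/kg. *Ugt1a8* had 0, 0 and 2 counts in vehicle mice and 0, 2 and 0 at 30 µg/kg, and did not pass the filter. *Ugt1a1*, whose first exon is the last of the 9, had the smallest change at 30 µg/kg among the 6 tested *Ugt1a* genes.

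**Figure D5:**
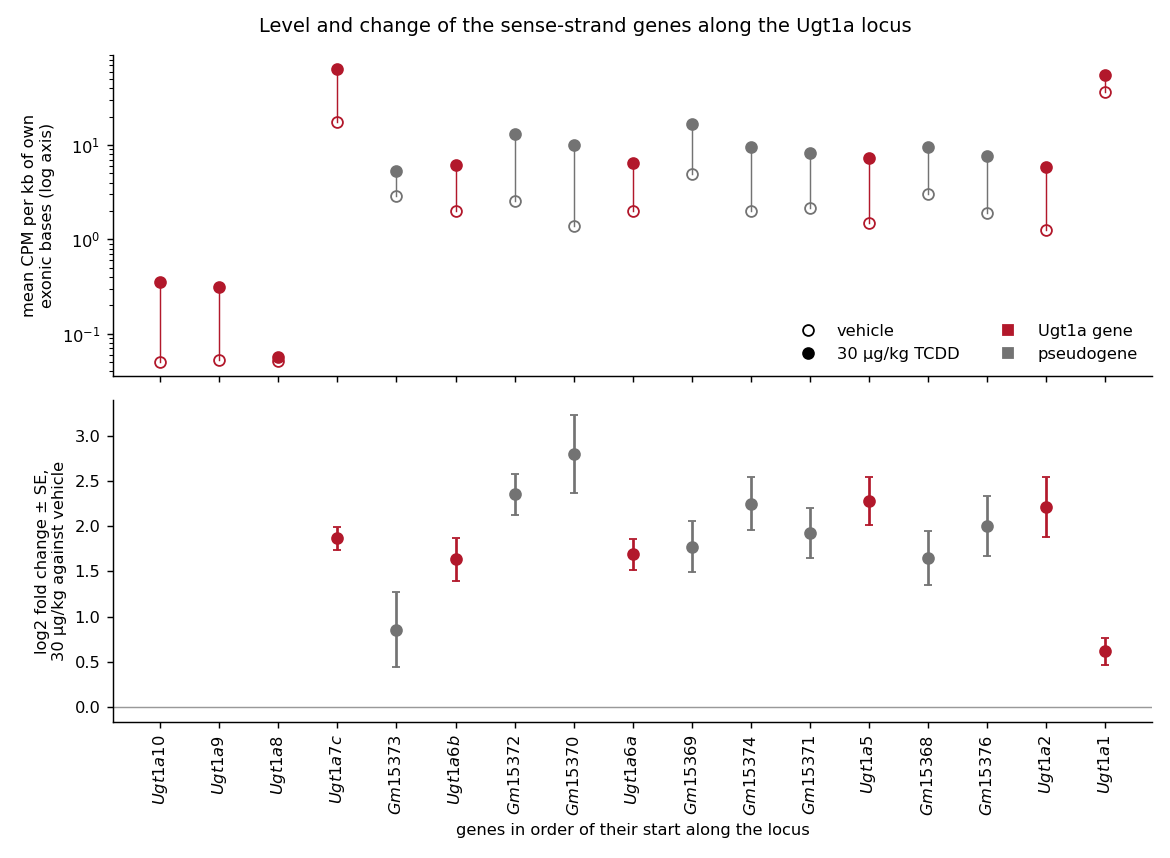
Genes of the sense strand in order of their start along the locus, with the 9 *Ugt1a* genes in red and 8 pseudogenes in grey. The upper panel gives the mean CPM per kb of own exonic bases (log axis) in vehicle mice (open) and at 30 µg/kg (filled), and the lower panel the log2 fold change ± SE for those tested. The 3 genes upstream of *Ugt1a7c* are below 0.4 CPM/kb, and *Ugt1a1* has a high level and a log2 change of 0.62.

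On the opposite strand of the locus, *Gm20528* and the chaperone gene *Dnajb3* have exons. *Dnajb3* fell at 30 µg/kg from 49, 34 and 50 counts to 18, 17 and 12 (log2 -1.38 ± 0.27 SE, edgeR adjusted p = 0.00122). *Gm20528*, all of whose exonic bases lie under exons of the plus strand, was counted 7 to 12 times per vehicle mouse and 20 to 21 times per mouse at 30 µg/kg (2.26-fold, adjusted p = 0.0274). Whether the counting used the strand is not stated. Of 289 genes whose exons lie wholly under exons of the opposite strand, 32.2% had a mean of at least 1 count, against 8.5% of 579 genes that share all their exonic bases with genes of the same strand. How reads were divided between *Gm20528* and *Ugt1a1* was not tested. Outside the locus, 2 of the 6 nearest genes that passed the filter were called higher at 30 µg/kg, *Usp40* (1.95-fold, adjusted p = 6.40e-06) and *Dgkd* (1.64-fold, adjusted p = 0.00116), and *Mroh2a*, *Hjurp*, *Arl4c* and *Gm38365* were not.

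Promoter windows were read for 5 of the 6 members from RefSeq (GRCm38.p6), as the 250 bases before the start of the gene, and *Ugt1a6b* was not used here. They are shown for *Ugt1a7c*, the tested member with the largest change at 30 µg/kg, and for *Ugt1a1*, the one with the smallest, with matches to the dioxin response element core GCGTG on either strand marked by capitals:

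*Ugt1a7c* (chr1:88094751-88095000, plus strand): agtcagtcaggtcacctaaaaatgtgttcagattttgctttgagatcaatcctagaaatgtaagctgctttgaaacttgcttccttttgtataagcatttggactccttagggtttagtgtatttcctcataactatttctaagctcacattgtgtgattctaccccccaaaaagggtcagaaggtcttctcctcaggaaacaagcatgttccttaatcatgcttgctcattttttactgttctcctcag
*Ugt1a1* (chr1:88211709-88211958, plus strand): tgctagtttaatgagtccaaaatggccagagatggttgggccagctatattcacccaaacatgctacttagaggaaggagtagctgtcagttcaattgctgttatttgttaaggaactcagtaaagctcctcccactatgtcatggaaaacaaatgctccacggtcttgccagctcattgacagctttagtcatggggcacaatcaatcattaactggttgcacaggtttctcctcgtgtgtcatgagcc

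Neither window holds a capital, and 0 of the 5 members' windows held GCGTG, the longer TNGCGTG, the antioxidant response element core TGACNNNGC, the E-box CACGTG or the HNF1 motif, searched on both strands. Among 32851 promoter windows of this length these motifs were found in 28.2%, 4.10%, 10.2%, 6.02% and 0.0609%, and every TNGCGTG match is also a GCGTG match. Of the other *Ugt1a* genes, the window of *Ugt1a8* held GCGTG 70 bases and that of *Ugt1a5* 49 bases before the start. These letters describe the windows only and say nothing of more distant sequence.

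Genes whose log2 CPM over the 27 mice was most like that of *Ugt1a7c* were *Cyp1b1* (Pearson's r = 0.953), *Ahrr* (0.948), *Gm15372* (0.947), *Ugt1a6a* (0.938) and *Slc6a6* (0.937). For the sum of the members they were *Prkag2* (0.954), *Slc6a6* (0.953), *Selenbp1* (0.946), *Gm15372* (0.945) and *Mknk2* (0.938). The points share their libraries and the dose series, and the values are descriptions. Among the members, r was 0.938 between *Ugt1a6a* and *Ugt1a7c*, 0.937 between *Ugt1a6b* and *Ugt1a7c* and 0.889 between *Ugt1a6a* and *Ugt1a6b*, but 0.556 to 0.690 between *Ugt1a1* and each of them. In the gene models above, own bases of *Ugt1a7c* include the 3′ end and most of those of *Ugt1a6a* lie between common exons. The counts of these genes may therefore hold reads of other members.

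Of 8 genes of the AhR battery, 6 were tested and 4 were called higher at 30 µg/kg, and 0 lower. The cytochrome P450 *Cyp1a1* had 3, 0 and 2 counts in vehicle mice, 59, 61 and 103 at 1 µg/kg and 14821, 24317 and 27996 at 30 µg/kg. *Ahrr*, the AhR repressor, was called from 1 µg/kg (1.65-fold, edgeR adjusted p = 0.0452) and *Cyp1b1* from 3 µg/kg (3.24-fold, adjusted p = 0.0112), and at 30 µg/kg they were 29.8-fold and 64.5-fold above vehicle. *Tiparp*, a mono-ADP-ribosyltransferase that represses AhR, was 1.82-fold higher at 30 µg/kg. *Nqo1*, the quinone reductase, was at 1.05-fold (adjusted p = 0.851). *Cyp1a1* and *Ahrr* were thus called by edgeR at a dose of 1 µg/kg at which no *Ugt1a* member was, while DESeq2 called 1 of the 6 tested there.

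Of 12 regulators of *Ugt1a* genes, 3 were called higher at 30 µg/kg and 0 lower, with a median log2 change of 0.18 beside 0.02 over all genes tested. *Ppara*, the fatty acid receptor, rose 1.88-fold (edgeR adjusted p = 1.70e-05), *Nfe2l2*, which encodes NRF2, 1.51-fold (adjusted p = 0.00144) and *Nr1i3*, which encodes the constitutive androstane receptor, 2.93-fold (adjusted p = 0.0214). *Nr1i3* was low and variable, with 34, 68 and 25 counts in vehicle mice and 91, 189 and 68 at 30 µg/kg. Of 8 NRF2 target genes 1 was called higher, *Gclc*, the catalytic subunit of the enzyme that starts glutathione synthesis (1.83-fold, adjusted p = 8.23e-05), and 1 lower, the glutathione peroxidase *Gpx2* (log2 -1.68 ± 0.29 SE, adjusted p = 0.000379). The median of the list was log2 0.03.

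Of the 6 genes that make and carry UDP-glucuronic acid, 0 were called at 30 µg/kg by edgeR, 0 by DESeq2 and 0 had an unadjusted p under 0.05, and *Ugdh*, which makes UDP-glucuronic acid, was at 1.18-fold (log2 0.24 ± 0.13 SE, adjusted p = 0.200). Of 5 genes of heme and bilirubin handling, which supply and take up the substrate of UGT1A1, 0 were called by edgeR, 0 by DESeq2 and 1 had an unadjusted p under 0.05, the biliverdin reductase *Blvrb* (log2 -0.45 ± 0.18, adjusted p = 0.0896). Of 5 genes that export or cleave glucuronides 1 was called higher, *Abcc2*, the apical exporter MRP2, and 0 lower. *Abcc2* had 91.4, 144.9 and 98.2 CPM with vehicle, 426, 329 and 399 at 1 µg/kg, and 304.5, 918 and 481.5 at 30 µg/kg. It was called from 1 µg/kg (3.45-fold, adjusted p = 0.0123), below the doses at which members were called, and changed by 5.09-fold at 30 µg/kg (adjusted p = 8.13e-05) with widely spread mice. *Gusb*, the β-glucuronidase, had a log2 change of -0.58 ± 0.19 (adjusted p = 0.0405), short of the limit of 1.5-fold. Of 16 other UGT genes 8 were tested, and the 2 called, by edgeR and by DESeq2, were *Ugt1a5* and *Ugt1a2*, while 4 had an unadjusted p under 0.05. Outside the locus, *Ugt2b34* was at 365 ± 39.3 CPM (SD, n = 3) with vehicle and reached 538 ± 116 at 30 µg/kg (1.47-fold, adjusted p = 0.00708).

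Other features moved with dose beside the members. Of 11 clock genes 7 were called higher and 3 lower at 30 µg/kg, with *Per2* (6.70-fold), *Per3* (17.0-fold) and *Tef* (15.1-fold) higher and *Arntl* lower (log2 -2.60), and a score over the 11 (the mean of standardised log2 CPM of those that rise minus that of the others) went from between -1.99 and -1.68 in vehicle mice to between 1.87 and 2.38 at 30 µg/kg. With the score as a covariate, *Ugt1a7c* (log2 1.5, edgeR adjusted p = 0.00132) and *Ugt1a6a* (log2 1.64, adjusted p = 0.0237) were still called at 30 µg/kg, whereas *Ugt1a6b*, *Ugt1a1* and every member at 3 and 10 µg/kg were not. The score was between 1.435 and 1.978 at 3 µg/kg, so score and dose cannot be told apart between vehicle and ≥3 µg/kg. This covariate rests on differences within groups, which were widest at 0.01 µg/kg (-2.03 to 1.431) and 1 µg/kg (0.007374 to 1.849). With index use as a covariate, *Ugt1a7c*, *Ugt1a6a* and *Ugt1a6b* were called at 30 µg/kg (log2 1.92 to 2.44) and *Ugt1a7c* and *Ugt1a6b* at 10 µg/kg, but no member was at 3 µg/kg. In that fit *Ugt1a7c* at 3 µg/kg was at log2 1.04 (adjusted p = 0.0793) against 0.85 without the covariate, and *Ugt1a6a* at 10 µg/kg at log2 1.25 (adjusted p = 0.0860) against 1.02. Its covariate rests on the 3 mice at 1 µg/kg, the one dose with both index uses. The slopes over dose rank were lower with index use as a covariate for all tested members, for example 0.18 against 0.21 for *Ugt1a7c*.

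Marker genes of the cell types in the scrapings were read beside the members. The summed level of 4 goblet cell markers lay at 20700 to 23400 CPM with vehicle and at 29090 to 31720 with 30 µg/kg. All 4 were above vehicle in every mouse, as were 13.7% of all genes, by 1.36- to 1.40-fold. By edgeR all 4 had an adjusted p of at most 0.05, and 0 were called because the changes were short of the limit of 1.5-fold. Of 6 enterocyte markers, 1 was called higher (*Slc10a2*, 1.68-fold) and 1 lower (*Fabp6*, log2 -0.94), with sums of 6016 to 7185 and of 5230 to 9707 CPM. The 4 Paneth cell markers summed to 1320 to 3130 and 1429 to 2561 CPM, with 0 called by edgeR, 0 by DESeq2 and 0 at an unadjusted p under 0.05. Of 5 immune cell markers, *Jchain* was called lower (log2 -1.61), and the sum went from between 316 and 491 to between 193 and 246 CPM. The median log2 change of the 5 was -0.12, and 1 of them had an unadjusted p under 0.05 by edgeR. The 5 smooth muscle markers summed to 24.4 to 104 CPM with vehicle and to 35.3 to 333 with 30 µg/kg, with 0 called by edgeR, 0 by DESeq2 and 0 at an unadjusted p under 0.05, and log2 changes with a median of 1.26. The 4 hepatocyte markers summed to 7208 to 8071 and 3122 to 13720 CPM, nearly all of it *Apob*, which enterocytes also express. Of the 2 tested, *Ttr* was called higher (2.64-fold, from 0.879 CPM), and *Alb* had 0 to 4 counts at 30 µg/kg. Of the 3 colonocyte markers *Slc26a3* was tested (1.11-fold, adjusted p = 0.536), *Aqp8* had 0 to 1 counts, and the sums were 126 to 150 and 125 to 183 CPM. Their part in the members' changes was not tested.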

How the data were processed

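Total RNA from ileal epithelial scrapings of 27 mice was sequenced. Per the submitters' processing notes and the study's methods, the authors trimmed reads with Trimmomatic 0.33 after FastQC 0.11.3, aligned them to GRCm38 with TopHat2 2.1.0, handled alignments with SAMtools 1.2.0 and counted reads per gene with HTSeq 0.6.1. Options and strand setting are not given in the sources used here. The deposited values are raw counts per Ensembl gene, 1 table per mouse, and their closing rows stayed out of library sizes. Reads assigned to no gene were 44.5% to 49.5% of unique reads. Groups came from the labels. No library repeated another (chi-square over df of 6.99 to 74.3 over 27 same-dose pairs).

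Counts were tested with edgeR 4.0.16 in R 4.3.3 (quasi-likelihood, TMM, filterByExpr, 9 groups together). SEs are the log2 change over the root of F. DESeq2 1.42.0, other scalings and filters, covariates and leaving out each mouse were alternatives. Scripts were tested on simulated data. Own exonic bases came from GENCODE M21. Separate animals are the replicates, but co-housing is not given in the labels. Nothing here was chosen blind: members and lists were chosen with earlier results of these data known. Text names all members, up to 4 called genes per list by smallest p and the 5 most alike genes. *Nqo1*, *Ugdh*, *Gusb*, *Blvrb*, *Ugt2b34*, *Gm15373*, *Gm20528*, *Dnajb3*, *Apob*, *Alb*, *Aqp8* and *Slc26a3* were added after their values were seen.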

Additional observations from a re-analysis of the deposited data

How the results depend on the processing

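No result changed direction past its threshold. *Ugt1a7c* and *Ugt1a6a* at 30 µg/kg and *Ugt1a7c* from 3 to 30 µg/kg stayed called in all 9 other settings and on leaving out each mouse of the comparison in turn. With index use as a covariate 0 members were called at 3 µg/kg, where *Ugt1a7c* was at log2 1.04 against 0.85 without it, and 0 for the trend with dose, and all genes called were 31, 6, 48 and 482 at 1, 3, 10 and 30 µg/kg, against 67, 108, 294 and 908 higher and 32, 77, 129 and 666 lower without it. With the clock score as a covariate 0 members were called at 3 µg/kg, 0 at 10 µg/kg, 2 at 30 µg/kg and 0 for the trend, and all genes called were 0, 0, 4 and 55. The trend within the first index use called 0 members and that within the second 3, with slopes per dose step of log2 0.57 for *Ugt1a7c* (edgeR adjusted p = 2.62e-05), 0.49 for *Ugt1a6a* (0.000364) and 0.66 for *Ugt1a6b* (0.00279). Without a filter 169 genes were called at 1 µg/kg and 308 at 3 µg/kg, without the fold limit 151, 285, 636 and 2976 at the 4 doses, and in fits of only the mice compared 344 at 3 µg/kg and 667 at 30 µg/kg, with 1 member from 3 to 30 µg/kg. DESeq2 called 168 genes at 1 µg/kg, and 2 members from 10 to 30 µg/kg. Without 1 mouse, all genes called ranged from 12 to 107 at 1 µg/kg, from 67 to 225 at 3, from 208 to 450 at 10 and from 878 to 2508 at 30, and members from 10 to 30 µg/kg from 0 to 2. The causes were not tested.

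*Ugt1a1* at 30 µg/kg was no longer called with library-size scaling (log2 0.47), no filter (0.58), index use (0.69) or the clock score (0.34) as a covariate, or only the mice compared (0.62), against 0.62 as reported. With library-size scaling the median of all genes at 30 µg/kg was log2 -0.11, against 0.02. The summed counts of all 9 *Ugt1a* genes, a sum chosen after seeing the data, changed by log2 1.44 at 30 µg/kg. No paired analysis was possible because the mouse numbers in the labels are not shared between groups. Counts of 0 to 9 per mouse limit *Ugt1a9* and *Ugt1a10*.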
